A study of Rattus norvegicus with 12 samples.

Results

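The hearts of BAIBA-treated rats with an infarct were compared with the hearts of Sham rats, to list the genes whose transcript level still differed from a heart without an infarct under BAIBA. The comparison used 6 of the 12 rats of the series, 3 in the BAIBA group (labelled HF+Med) and 3 in the Sham group. All rats were male Sprague-Dawley rats, 8 weeks old when the model was made. In the BAIBA group the left anterior descending coronary artery was ligated and BAIBA was then gavaged for 8 weeks at 75 mg/kg/day. In the Sham group a thread was passed around the artery without ligation. The labels give Sham the operation alone. The study's methods give BAIBA to rats with heart failure, and the same volume of water by gavage to Sham and untreated heart failure rats. The supplement instead describes BAIBA for the Sham and heart failure groups. Whether these Sham rats, or the HF rats below, received it is therefore uncertain, and every value against Sham or of HF carries that limit. Hearts were collected 12 weeks after surgery. The other groups are given below as values only. HF (labelled HF+Sed) was ligated, sedentary and not labelled as given BAIBA. HFE (labelled HF+Exe) was ligated and exercised on a treadmill for 8 weeks. No group is labelled as Sham with BAIBA, so the infarct and the treatment cannot be told apart in this comparison. Tissue was cut from the anterior left ventricular wall and, in BAIBA rats, from around the infarct, so the site of sampling and the group cannot be told apart either.

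Of 32623 genes with a symbol, 13654 passed edgeR's filter on low counts and were tested, together with 1266 genes without a symbol, 14920 in all. Levels of single genes are given per rat as CPM, counts scaled to a common library total with TMM factors, in the order of replicates 1, 2 and 3. Total counts on genes were between 14879751 and 17465736 in the Sham rats and between 16152243 and 16661303 in the BAIBA rats. Markers of the ventricular muscle fitted the labelled tissue, with all 8 cardiomyocyte markers present and a summed level of 45948 to 47579.7 CPM in Sham and 38651 to 45969 CPM in BAIBA. BAIBA rat 1 stood apart, with a summed macrophage marker level of 1017, 178 and 211 CPM in the 3 BAIBA rats against 233, 247 and 203 CPM in the Sham rats. Its summed mesothelial and epicardial markers also stood highest, with 102, 31.4 and 50.5 CPM in the BAIBA rats against 25.5 to 27.4 CPM in Sham. Counts over gene groups are therefore also given without this rat where they changed.

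Ligation of the descending coronary artery kills the muscle it supplies, which is replaced by a collagen scar, while the surviving wall carries more load and takes up part of a fetal gene program. In the rat ventricle that program includes a switch from the fast alpha-myosin heavy chain, encoded by Myh6, to the slow beta-myosin heavy chain, encoded by Myh7. BAIBA, beta-aminoisobutyric acid, is a non-protein amino acid formed in the breakdown of valine and thymine and released by working muscle, and it is known for raising fatty acid oxidation in other tissues.

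Both myosin genes carry a microRNA of the same family inside them, shown here because Mir208b is counted beside Myh7 in the comparison below. The sequences are the mature forms in RefSeq for the GRCr8 build, with the seed (bases 2 to 8) in capitals.
rno-miR-208b-3p: aUAAGACGaacaaaaggu
rno-miR-208a-3p: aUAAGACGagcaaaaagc
The first lies at chr15:32421648-32421665 on the minus strand, within the span of Myh7 (chr15:32416525-32439851). The second lies at chr15:32395568-32395585 on the minus strand, within the span of Myh6 (chr15:32388102-32413663). The pair share the seed and differ at 3 of 18 positions.

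Few genes separated the groups. At an adjusted p under 0.05 together with a log2 fold change over 1 in size, 1 gene with a symbol was higher in BAIBA (F3, tissue factor) and 2 were lower (Myh7 and RGD1563601), and with genes that have no symbol counted in, 2 and 4 of 14920 genes tested were called (0.0134% and 0.0268%). At an unadjusted p under 0.05, without a limit on the fold change, 545 genes with a symbol were higher and 450 were lower, which were 3.99% and 3.3% of those tested. The median log2 fold change over the genes with a symbol was 0.0026, with quartiles of -0.13 and 0.15, and 374 were past 1 in either direction. DESeq2, the tool named in the study's methods, called 41 of 18486 genes higher and 37 lower (0.222% and 0.2%). With a symbol these were 32 and 24 genes, of which 28 and 22 did not overlap between the rats, against 6.52% of all genes tested without overlap and higher and 6.17% without overlap and lower. A call between these same rats favors genes without overlap, so these counts describe the calls and do not back them. Within Sham, the correlation of log2 CPM between rats was 0.970 to 0.979, within BAIBA it was 0.955 to 0.967, and between the groups it was 0.959 to 0.975, so the ranges overlapped.

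**Figure D1:**
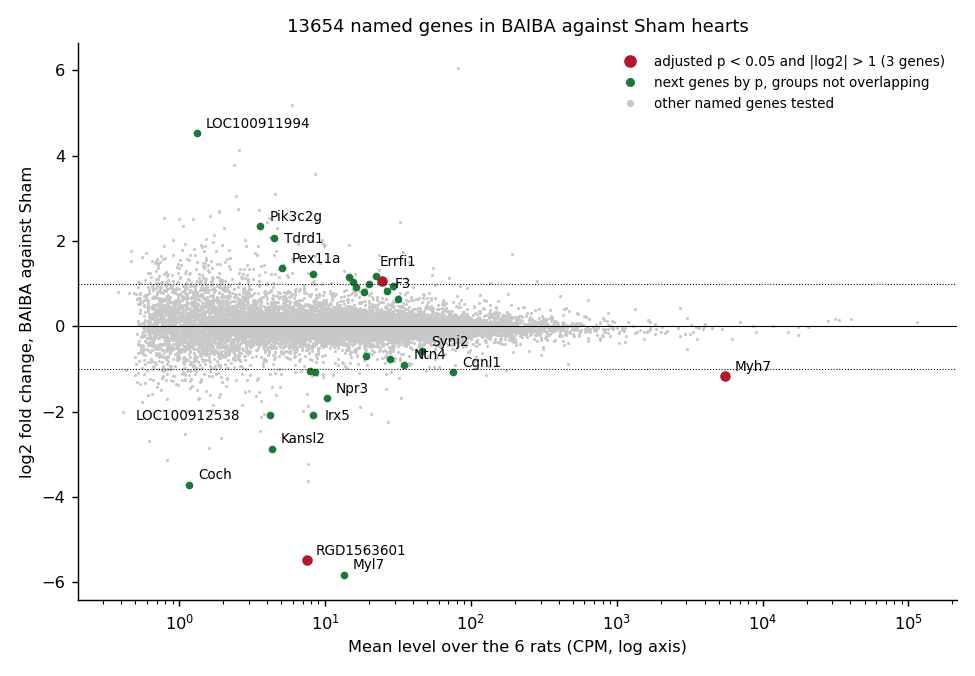
Log2 fold change of BAIBA against Sham for each tested gene with a symbol (vertical axis) against its mean level over the 6 rats in CPM (horizontal log axis), with the 3 called genes that have a symbol and the other genes named by p as larger points. Most genes lie near 0, and Myh7 is the called gene with the highest level.

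The slow myosin gene was the most abundant gene called, and it was lower in the treated hearts than in Sham. Myh7 was at 7445, 7724 and 7979.9 CPM in the Sham rats and at 3093, 3597 and 3553 CPM in the BAIBA rats. The groups did not overlap, and the lowest Sham rat stood above the highest BAIBA rat by more than the spread within either group. Myh7 fell by 1.17 on the log2 scale (SE 0.10, 95% interval -1.404 to -0.94, adjusted p = 0.00864, edgeR's quasi-likelihood test with Benjamini-Hochberg adjustment). Leaving out any one Sham rat ended the call, with an adjusted p of 0.0699, 0.0894 or 0.0568 (edgeR), as did fitting all 12 rats together (adjusted p = 0.302, edgeR). Myh6 was at 19603, 18993 and 17422 CPM in Sham and 12124, 18337 and 18156 CPM in BAIBA. Its groups overlapped, and BAIBA rat 1 was lowest (log2 fold change -0.20, 95% interval -0.57 to 0.17). Per length, mean Myh7 was 1319 ± 66.6 FPKM (SD, n = 3) in Sham and 584 ± 20.7 FPKM in BAIBA, and mean Myh6 was 3133 ± 152 and 2709.8 ± 475 FPKM, so Myh6 was the higher of the pair in both groups. In bulk tissue, fewer cells of a type and less RNA per cell cannot be told apart.

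The microRNA gene inside Myh7 was counted at a low level, with overlapping groups. Mir208b was at 2.94, 5.83 and 5.52 CPM in Sham and 6.80, 5.77 and 4.76 CPM in BAIBA. The lowest of the 6 levels was in Sham rat 1 and the highest was in BAIBA rat 1 (log2 fold change 0.29, 95% interval -0.37 to 0.95). The libraries were made from polyadenylated RNA, so these reads came from longer transcripts over the hairpin and not from the mature form printed above.

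No other sarcomere gene was called. Of 17 sarcomere genes tested, 4 were lower and 0 were higher at an unadjusted p under 0.05 (3.28% and 4.13% of all genes tested), with a median log2 fold change of -0.14. The counts of later gene groups at this threshold are to be read against the same shares. The lists and their members were chosen with earlier results of these data known. The counts, here and below, are therefore descriptions and not independent tests of a group. The 4 were Myh7, Tnni1, Actc1 and Myom1. Tnni1, the slow skeletal troponin I of the fetal heart, was at 1.21, 2.46 and 1.51 CPM in Sham and 0.390, 1.09 and 0.422 CPM in BAIBA. These levels were low and did not overlap (log2 fold change -1.44, adjusted p = 0.616, edgeR). Actc1, cardiac alpha-actin, was at 6437, 6524 and 7526 CPM in Sham and 6184, 5286 and 5153 CPM in BAIBA (log2 fold change -0.30). Myom1, a protein of the M band, was at 812, 757 and 795 CPM in Sham and 677, 686 and 680.3 CPM in BAIBA (-0.20). Neither pair overlapped, and neither gene passed the adjusted test. Without BAIBA rat 1, 2 of the 17 were lower (Myh7 and Actc1) and 1 was higher (Tnni3), in a fit where 3.68% of all genes tested were lower and 4.78% higher.

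The classical markers of a loaded ventricle were spread widely within each group. Nppa, encoding the atrial natriuretic peptide, was at 133, 16.9 and 375 CPM in Sham and 212, 10.4 and 11.6 CPM in BAIBA. Nppb, encoding the brain natriuretic peptide, was at 132, 46.4 and 109.8 CPM in Sham and 109, 36.1 and 83.2 CPM in BAIBA. Both overlapped, and their intervals were wide (-5.403 to 3.0997 for Nppa and -1.68 to 1.01 for Nppb on the log2 scale). Acta1, the skeletal alpha-actin of the fetal program, was at 427, 478 and 886 CPM in Sham and 557, 92.4 and 315 CPM in BAIBA and overlapped as well. Of 15 stress and hypertrophy genes tested, 1 was higher and 1 was lower at an unadjusted p under 0.05, with a median of -0.014 (-0.30 without BAIBA rat 1). Xirp1, an actin-binding protein of the intercalated disc, was at 211, 233 and 223 CPM in Sham and 161, 167 and 189 CPM in BAIBA, without overlap (log2 fold change -0.36, adjusted p = 0.488, edgeR). The higher gene, Gadd45g, is described below.

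Npr3, the receptor that clears natriuretic peptides from the circulation, was among the lower genes with the smallest p, although its adjusted p stayed above the threshold. Genes named by p, here and below, had to show no overlap between the BAIBA and Sham rats. Their separation therefore follows from the choice and is no further evidence. Its level was 13.2, 16.7 and 17.3 CPM in Sham and 4.52, 6.16 and 3.98 CPM in BAIBA. No BAIBA rat came near the Sham range (log2 fold change -1.68, SE 0.20, 95% interval -2.14 to -1.22, adjusted p = 0.0513, edgeR). HF rats were at 8.14, 8.83 and 10.3 CPM and HFE rats at 6.26, 4.64 and 2.09 CPM, below every Sham rat in both groups.

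**Figure D2:**
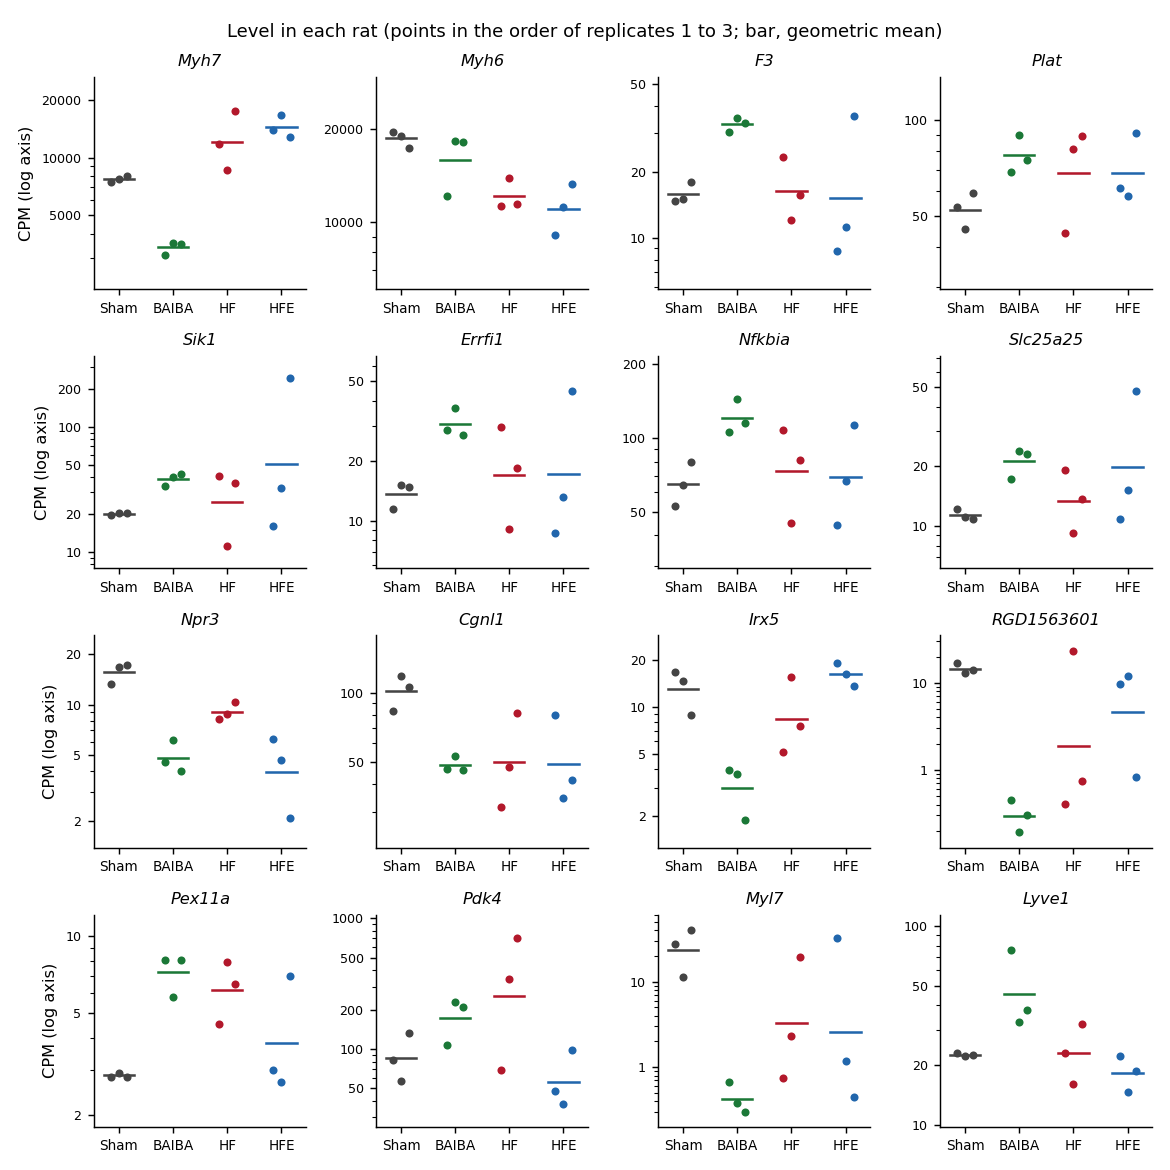
Level of named genes in CPM (log axis) in each of the 12 rats, by group (Sham, BAIBA, HF and HFE), with each point 1 rat and the bar the geometric mean of the group. Myh7 lies below Sham in all 3 BAIBA rats and above it in all 3 HF rats, and Npr3 lies below Sham in all 9 ligated rats.

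Tissue factor was the gene called higher. F3, which starts the extrinsic pathway of coagulation, was at 14.8, 15 and 17.9 CPM in the Sham rats and 30.3, 35.2 and 33.5 CPM in the BAIBA rats. The lowest BAIBA rat was well above the highest Sham rat (log2 fold change 1.06, SE 0.12, 95% interval 0.78 to 1.34, adjusted p = 0.0495, edgeR). The call lay close to the threshold and was lost when any Sham rat, BAIBA rat 2 or BAIBA rat 3 was left out, with adjusted p of 0.0487 to 0.278 over the 6 rats left out in turn (edgeR). In HFE, F3 was at 8.79, 11.3 and 36 CPM, so a single exercised rat reached the BAIBA range.

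Of 15 coagulation and fibrinolysis genes tested, 4 were higher and 0 were lower at an unadjusted p under 0.05, against 4.13% and 3.28% of all genes tested, with a median log2 fold change of 0.14. The list holds F3, the called gene, and was chosen with earlier results known, so the count is only a description. Besides F3 the higher genes included Plat and Plau, which encode the tissue-type and urokinase-type plasminogen activators. Plat was at 53.4, 45.7 and 59.1 CPM in Sham and 69.0, 89.9 and 75.3 CPM in BAIBA, without overlap (log2 fold change 0.57, adjusted p = 0.374, edgeR). Plau was at 2.13, 1.56 and 2.69 CPM in Sham and 5.02, 2.31 and 4.28 CPM in BAIBA, and its groups overlapped. Without BAIBA rat 1, 2 of the 15 were higher (F3 and Plat), 1 was lower (Anxa2), and the median was 0.008.

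Sik1, Errfi1, Slc25a25 and Gadd45g were also among the higher genes named by p, and none of them passed the adjusted test. They are not given in order of p, since Gpm6a, Pex11a and others described below ranked above Slc25a25 and Gadd45g. Sik1, a kinase induced by cyclic AMP, was at 19.7, 20.4 and 20.6 CPM in Sham and 34, 39.9 and 41.9 CPM in BAIBA. Errfi1, a feedback inhibitor of the epidermal growth factor receptor, was at 11.4, 15.1 and 14.7 CPM in Sham and 28.5, 36.8 and 27.0 CPM in BAIBA. In both, all 3 BAIBA rats stood above all 3 Sham rats, as naming by p required. The log2 fold change was 0.94 (95% interval 0.68 to 1.19) for Sik1 and 1.17 (0.79 to 1.54) for Errfi1, with adjusted p of 0.0512 and 0.0927 (edgeR), both above the threshold. Slc25a25, a mitochondrial carrier of ATP-Mg and phosphate, was at 12.2, 11.1 and 10.8 CPM in Sham and 17.2, 23.9 and 23.2 CPM in BAIBA. Gadd45g, induced by growth arrest and DNA damage, was at 11.6, 11.3 and 17.5 CPM in Sham and 29.6, 23.5 and 26.1 CPM in BAIBA. Nfkbia, the inhibitor that holds NF-kappa B in the cytoplasm and is itself a target of NF-kappa B, was named from the list of inflammatory mediators and was at 52.7, 64.0 and 80.1 CPM in Sham and 106, 144 and 115 CPM in BAIBA. None of the 3 overlapped between the groups, which naming by p required of Slc25a25 and Gadd45g. Their log2 fold changes were 0.92, 0.98 and 0.90, with adjusted p of 0.123, 0.220 and 0.254 (edgeR).

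Few of the classical immediate early genes passed the unadjusted threshold. Of 21 such genes tested, 3 were higher and 0 were lower at an unadjusted p under 0.05, namely the transcription factors Klf2 and Klf4 and the mRNA decay factor Zfp36, with a median of 0.21. Klf2 was at 24.5, 23.2 and 25.3 CPM in Sham and 33.9, 42.8 and 31.2 CPM in BAIBA, Klf4 at 45.1, 41.6 and 47.0 CPM in Sham and 71.3, 64.8 and 50.1 CPM in BAIBA, and Zfp36 at 33.9, 36.8 and 29.6 CPM in Sham and 38.0, 45.5 and 42.2 CPM in BAIBA. In all 3 genes the groups were separate, with adjusted p of 0.374, 0.534 and 0.624 (edgeR). Fos and Egr1, named after their values were seen, had log2 fold changes of 0.37 (-1.21 to 1.95) and -0.0041 (-0.55 to 0.54), and both overlapped. With BAIBA rat 1 left out, 3 of the 21 were higher and 2 were lower (Jund and Junb). The levels of these genes also varied within the other groups, where HFE rat 3 had the highest level of Sik1 of all 12 rats (HFE 16.1, 32.7 and 245 CPM) and HF rats were at 40.4, 11.1 and 35.7 CPM.

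The 250 bases before the transcription start that the RefSeq promoter table uses for 4 of these genes are shown because motifs known to answer to cyclic AMP or NF-kappa B were found in them. The sequences are of the GRCr8 build and in the direction of transcription. Capitals mark matches on either strand to the cyclic AMP response element TGACGTCA in Slc25a25, to its half-site TGACG, which the full element contains and which reads CGTCA on the other strand, in Sik1 and Errfi1, and to the kappa B motif in Nfkbia.
Sik1: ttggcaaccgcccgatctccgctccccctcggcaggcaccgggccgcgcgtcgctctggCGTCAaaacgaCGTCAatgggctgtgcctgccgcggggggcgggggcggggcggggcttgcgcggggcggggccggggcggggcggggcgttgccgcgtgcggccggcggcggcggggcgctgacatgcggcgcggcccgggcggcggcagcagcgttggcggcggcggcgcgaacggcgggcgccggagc
Errfi1: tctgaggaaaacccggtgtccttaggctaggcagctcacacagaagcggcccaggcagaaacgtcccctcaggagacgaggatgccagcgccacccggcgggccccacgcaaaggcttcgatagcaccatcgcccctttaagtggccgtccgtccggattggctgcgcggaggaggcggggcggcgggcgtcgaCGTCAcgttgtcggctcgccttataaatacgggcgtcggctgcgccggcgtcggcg
Slc25a25: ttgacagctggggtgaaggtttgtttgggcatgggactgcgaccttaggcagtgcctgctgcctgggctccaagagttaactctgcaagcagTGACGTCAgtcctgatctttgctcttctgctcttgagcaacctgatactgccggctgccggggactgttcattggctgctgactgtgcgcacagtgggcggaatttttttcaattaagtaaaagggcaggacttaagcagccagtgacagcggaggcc
Nfkbia: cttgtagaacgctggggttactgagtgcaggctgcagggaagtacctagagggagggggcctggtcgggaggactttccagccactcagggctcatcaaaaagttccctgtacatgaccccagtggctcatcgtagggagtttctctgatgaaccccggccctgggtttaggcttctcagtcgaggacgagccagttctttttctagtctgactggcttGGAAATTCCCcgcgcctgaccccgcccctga
These windows lie at chr20:9958647-9958896 (minus strand), chr5:166606591-166606840 (plus strand), chr3:36116582-36116831 (minus strand) and chr6:78597073-78597322 (minus strand), in that order. The annotated gene spans reach farther upstream than these starts in 3 genes, so that 83 bases of the Sik1 window, all 250 of the Slc25a25 window and 235 of the Nfkbia window lie within the gene, against 0 in Errfi1. The half-site matches began 191 and 180 bases before the start used in Sik1 and 56 bases before it in Errfi1, the full element 158 bases before it in Slc25a25 and the kappa B match 31 bases before it in Nfkbia. Among 33469 windows of the same length, 1.59% held the full element, 18.2% the half-site and 3.54% the kappa B motif. Of the 15 higher genes named by p, 13 had a window, and 1 held the full element, 3 the half-site (Errfi1, Sik1 and Slc25a25) and 1 the kappa B motif (Dpep1). Of the 15 lower genes, 12 had a window, and 1 held the half-site (Myl7). The counts are a description of the letters in these windows.

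RGD1563601 was the gene called lower with the smallest p. This locus, annotated as similar to the glycolytic enzyme Tpi1, was at 16.9, 13 and 13.9 CPM in Sham and 0.446, 0.192 and 0.302 CPM in BAIBA. All BAIBA rats were below 1 CPM (log2 fold change -5.48, SE 0.28, adjusted p = 0.000527, edgeR). The same low level was found in HF rats 1 and 3 (HF 0.401, 23.2 and 0.741 CPM) and in HFE rat 3 (HFE 9.65, 12 and 0.823 CPM), so the gene was near 0 in some ligated rats and at the Sham level in others. Tpi1 itself was at 15.8, 16.4 and 16.2 CPM in Sham and 16.8, 11.5 and 18.2 CPM in BAIBA and overlapped. Reads of near-identical copies can be split between such loci, so the level of RGD1563601 is uncertain. Its call was lost when all 12 rats were fitted together (adjusted p = 0.584, edgeR), and it was not tested when at least 10 counts in every library were required.

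Other genes had levels that were high in some rats and near 0 in others. Kansl2, a subunit of a histone acetyltransferase complex, was at 10.5, 6.55 and 5.84 CPM in Sham and 1.39, 1.03 and 0.663 CPM in BAIBA (log2 fold change -2.87, adjusted p = 0.0530, edgeR). All BAIBA rats were below all Sham rats, as naming by p required, and HF rats spanned the gap, at 3.38, 0.982 and 6.14 CPM. LOC100912538 was at 6.12, 6.48 and 7.62 CPM in Sham and 1.12, 1.35 and 2.29 CPM in BAIBA. LOC100911994 went the other way, at 0.115, 0 and 0.197 CPM in Sham and 3.63, 1.28 and 2.71 CPM in BAIBA. Both were separate between the groups by the same rule, with adjusted p of 0.0933 and 0.116 (edgeR). The HFE rats had LOC100911994 at 3.20, 1.94 and 3.61 CPM.

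Among the remaining higher genes named by p, several encode matrix, membrane and peroxisomal proteins. Gpm6a, a membrane glycoprotein best known from neurons, was at 9.0, 10.6 and 11.2 CPM in Sham and 20.2, 18.7 and 24 CPM in BAIBA. Pex11a, which takes part in peroxisome division, was at 2.83, 2.92 and 2.82 CPM in Sham and 8.09, 5.77 and 8.08 CPM in BAIBA. Dpep1, a dipeptidase of the cell surface, was at 9.75, 8.82 and 8.60 CPM in Sham and 16, 19.4 and 25.1 CPM in BAIBA. Each separated the groups, as naming by p required. The log2 fold changes were 1.03, 1.36 and 1.16, with adjusted p of 0.0927, 0.114 and 0.114 (edgeR). Ptn, the growth factor pleiotrophin, was at 14.4, 12.1 and 14.4 CPM in Sham and 22.7, 26.1 and 22 CPM in BAIBA, and Efemp1, a fibulin of the extracellular matrix, was at 19.5, 20.2 and 18 CPM in Sham and 41.0, 31.9 and 28.2 CPM in BAIBA. Cyp26b1, an enzyme that breaks down retinoic acid, was at 4.27, 5.58 and 5.06 CPM in Sham and 10.4, 8.98 and 15.5 CPM in BAIBA. The log2 fold changes of these 3 genes were 0.80, 0.82 and 1.23, without overlap by the same rule. The other higher genes were Iqub (0.64), Tdrd1 (2.08), a protein of the germ line, and Pik3c2g (2.35), a phosphoinositide kinase. Tdrd1 and Pik3c2g were low in Sham, at 1.5, 1.49 and 2.10 CPM and 1.33, 1.10 and 1.12 CPM.

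The lower genes named by p included proteins of cell junctions, basement membrane and glycan handling. Cgnl1, a protein of the apical junction, was at 82.9, 118 and 105 CPM in Sham and 46.2, 53.1 and 45.7 CPM in BAIBA. Ntn4, netrin-4 of the basement membrane, was at 45.3, 50.2 and 40.7 CPM in Sham and 23.9, 26.9 and 22 CPM in BAIBA. Neither overlapped between the groups, as naming by p required (log2 fold changes -1.07 and -0.90, adjusted p of 0.0709 and 0.0816, edgeR). The HF rats had Cgnl1 at 31.6, 47.4 and 81.6 CPM and Ntn4 at 23.2, 32.1 and 36.3 CPM, below all Sham rats. Synj2, a phosphoinositide phosphatase, was at 57.0, 56.8 and 52.1 CPM in Sham and 35.5, 38.6 and 35.9 CPM in BAIBA. Fuca2, a fucosidase, was at 23.9, 24.7 and 22.4 CPM in Sham and 13.3, 15.2 and 15.3 CPM in BAIBA, and Slc35c2, of the nucleotide sugar transporter family, at 32.1, 37.6 and 36.3 CPM in Sham and 20.4, 18.3 and 23.4 CPM in BAIBA. All 3 were separate between the groups by the same rule, with log2 fold changes of -0.59, -0.69 and -0.77. Gprin3 (-1.06), Atcay (-1.05) and Coch (-3.72), which encodes the matrix protein cochlin, completed the lower genes outside the atrial and Iroquois genes given next.

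DESeq2 called further genes with a symbol, no overlap and a mean of at least 1 CPM, of which up to 10 in each direction were named, by fold. The higher ones not given above were Fam50a, Sema3e, Tcf23, Atp6v1g2, Evpl, LOC100365697, Cpa3 and Cma1, and the lower ones included Nfs1, LOC299282 and Irx3. On the marker lists below, DESeq2 also called 1 erythroid and 2 lymphatic markers higher and 2 atrial markers lower, against 0.222% and 0.2% of all genes. Cpa3 and Cma1, proteases of mast cells, were at 22.1, 3.21 and 5.49 CPM and 14.2, 1.8 and 4.28 CPM in the BAIBA rats, against 1.85, 2.01 and 1.71 CPM and 1.67, 0.648 and 1.44 CPM in Sham. Fam50a was at 26.2, 7.70 and 0.663 CPM in BAIBA and 0.462, 0.194 and 0.263 CPM in Sham. In all 3 genes BAIBA rat 1 was the highest. Sema3e, a semaphorin, and Evpl, the junction protein envoplakin, were also highest in BAIBA rat 1, at 5.86, 1.03 and 0.603 CPM and 7.58, 1.60 and 3.98 CPM. Atp6v1g2, a subunit of the vacuolar proton pump, was highest in BAIBA rat 2 (1.17, 8.21 and 3.80 CPM). Among the lower genes, Nfs1, the cysteine desulfurase of iron-sulfur cluster assembly, rested on Sham rat 1 (8.65, 0.194 and 0.854 CPM in Sham and 0.0558, 0.128 and 0.181 CPM in BAIBA).

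Among the atrial and Iroquois genes, none was called by edgeR. Irx5, a transcription factor that shapes the gradient of repolarization across the ventricular wall, was at 16.8, 14.6 and 8.86 CPM in Sham and 3.90, 3.72 and 1.87 CPM in BAIBA. Irx3, a related factor of the ventricular conduction system, was at 13.2, 13.3 and 7.22 CPM in Sham and 2.40, 4.94 and 1.21 CPM in BAIBA. No BAIBA rat reached the Sham range in either gene, which the rules of naming required of both. The log2 fold changes were -2.08 and -1.98, with adjusted p of 0.138 and 0.461 (edgeR). Myl7, the atrial myosin light chain, was at 27.3, 11.3 and 40.6 CPM in Sham and 0.669, 0.385 and 0.302 CPM in BAIBA (log2 fold change -5.82, 95% interval -7.31 to -4.34, adjusted p = 0.0695, edgeR). In the other groups Myl7 ranged from rat to rat, at 0.745, 2.33 and 19.7 CPM in HF and 32.4, 1.18 and 0.443 CPM in HFE. Of 7 atrial markers tested, 4 were lower (Myl7, Sln, Myl4 and Dkk3) and 1 was higher (Nr2f2) at an unadjusted p under 0.05, and with BAIBA rat 1 left out 2 were lower (Myl7 and Sln) and 1 was higher. Their summed level was 349.6, 223 and 551 CPM in Sham and 327, 142 and 129 CPM in BAIBA and overlapped, with Nppa the main term. How much atrial tissue each sample held was not tested.

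Genes of electrical activity and calcium cycling leaned below Sham. Of 14 ion channel genes tested, 3 were lower and 0 were higher at an unadjusted p under 0.05, with a median of -0.18. Hcn4, the pacemaker channel, was at 64.3, 32.8 and 35.6 CPM in Sham and 7.58, 17.3 and 3.14 CPM in BAIBA. Kcnj2, the inward rectifier that sets the resting potential, was at 16.3, 14.7 and 14.2 CPM in Sham and 11.8, 11.2 and 11.5 CPM in BAIBA. Neither gene overlapped between the groups, and their log2 fold changes were -2.25 and -0.38, with adjusted p of 0.589 and 0.58 (edgeR). Leaving out BAIBA rat 1 gave 3 lower channel genes again, with Gja5 in place of Hcn4. Of 15 calcium handling genes tested, 3 were lower and 0 were higher, with a median of -0.13. The L-type channel subunits Cacna1c and Cacnb2 were separate between the groups, at 149.7, 151 and 133 CPM in Sham and 109, 115 and 132 CPM in BAIBA for Cacna1c (log2 fold change -0.28) and at -0.29 on the log2 scale for Cacnb2, and the third gene was Sln. Atp2a2, the calcium pump of the sarcoplasmic reticulum, was at 9306, 9496 and 9498 CPM in Sham and 7951, 8204 and 9554 CPM in BAIBA and overlapped (log2 fold change -0.13, 95% interval -0.37 to 0.11). In calcium handling, 2 genes were lower without BAIBA rat 1 (Sln and Jph2).

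**Figure D3:**
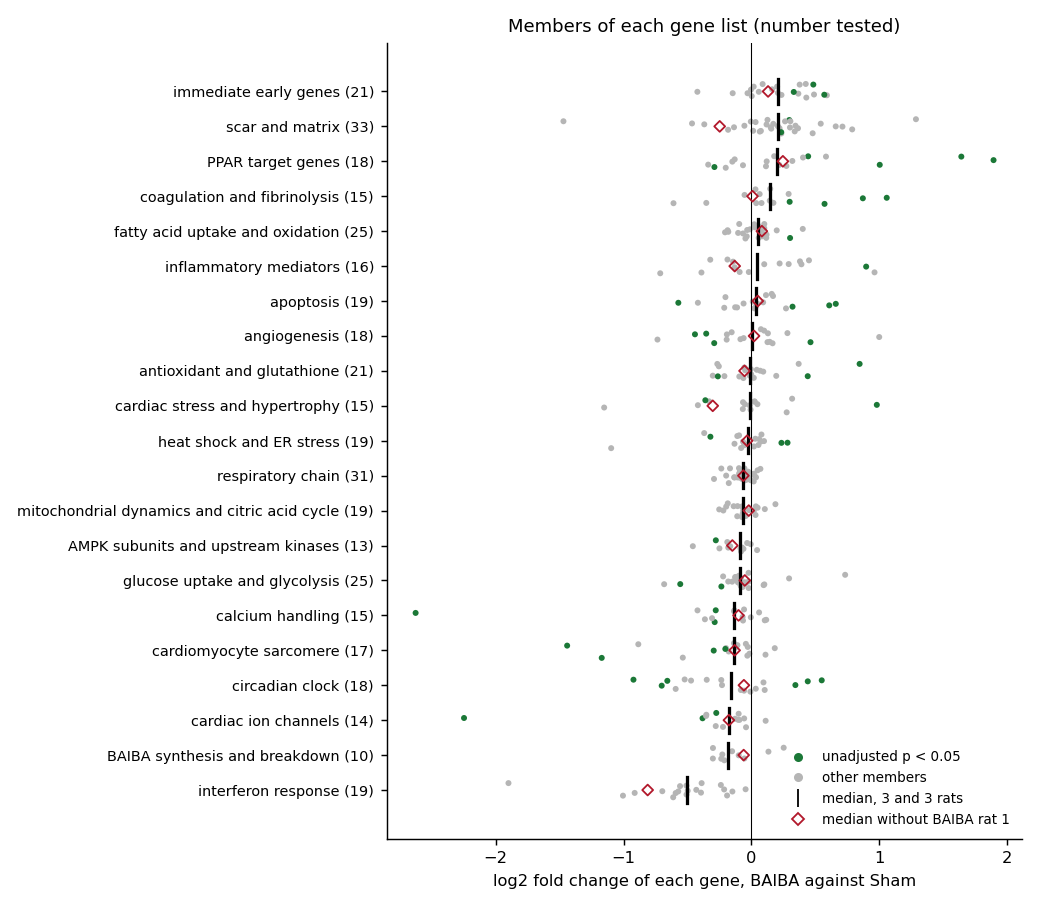
Log2 fold change of BAIBA against Sham for the tested members of each gene group, with 1 point a gene (green at an unadjusted p under 0.05), the bar the median of the group and the diamond its median without BAIBA rat 1. The respiratory chain group is the narrowest, between -0.29 and 0.07, and all 19 interferon genes lie below 0.

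Within fuel metabolism, most of the genes past the unadjusted threshold were targets of the fatty acid receptors called PPARs. Of 18 genes tested on the PPAR target list, 4 were higher and 1 was lower at an unadjusted p under 0.05 (4.13% and 3.28% of all genes). The median was 0.20, and the list also held the receptors themselves and their coactivators. Pdk4, the kinase that closes pyruvate dehydrogenase to glucose carbon, was at 83.0, 57.0 and 133 CPM in Sham and 108, 228 and 209 CPM in BAIBA. Ucp3, a mitochondrial uncoupling protein, was at 3.46, 1.30 and 7.68 CPM in Sham and 14.0, 15 and 9.59 CPM in BAIBA, and Angptl4, an inhibitor of lipoprotein lipase, at 0.115, 0.972 and 1.44 CPM in Sham and 3.29, 3.53 and 2.47 CPM in BAIBA. Pdk4 overlapped between the groups and the others did not. Acot2, a mitochondrial acyl-CoA thioesterase, was at 91.4, 82.7 and 94.1 CPM in Sham and 123, 123 and 117 CPM in BAIBA, without overlap. The log2 fold changes were 1.003, 1.64, 1.89 and 0.44, and the adjusted p was between 0.279 and 0.656 (edgeR). Plin2, which coats lipid droplets, was the lower gene, at 72.5, 95.7 and 84.4 CPM in Sham and 71.3, 65.4 and 69.0 CPM in BAIBA (-0.29). The HF rats had Pdk4 at 69.1, 343 and 709 CPM and Angptl4 at 1.15, 10.4 and 17.8 CPM, with 2 of the 3 rats above every BAIBA rat in both genes. Without BAIBA rat 1, 5 PPAR targets were higher (Acot2, Txnip, Pdk4 and Angptl4 among them) and 1 was lower.

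The enzymes of fatty acid oxidation themselves were near the Sham level. Of 25 tested, 1 was higher (Eci1, log2 fold change 0.30) and 0 were lower at an unadjusted p under 0.05, the median was 0.054, and the members lay between -0.21 and 0.40. Fabp4, a fatty acid binding protein, took the place of Eci1 when BAIBA rat 1 was left out. Cpt1b, the carnitine transferase that admits fatty acids to the mitochondrion, was at 444, 459.9 and 494 CPM in Sham and 404, 455 and 499 CPM in BAIBA (log2 fold change -0.037, 95% interval -0.28 to 0.21). Acadl, the long-chain acyl-CoA dehydrogenase, was at 1143, 1089 and 1213 CPM in Sham and 1123, 1184 and 1371 CPM in BAIBA (0.10, -0.15 to 0.35). Both overlapped, and the intervals kept a change of 1 log2 unit outside. Acaca and Acacb, the acetyl-CoA carboxylases whose product inhibits that carnitine transferase, were at -0.047 (-0.56 to 0.47) and 0.057 (-0.24 to 0.36).

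Glucose transport and glycolysis held 2 lower genes. Slc2a1, the glucose transporter GLUT1, was at 26.0, 22.7 and 19.8 CPM in Sham and 15.5, 16.5 and 14.4 CPM in BAIBA, and Hk1, a hexokinase, was at 125, 124 and 142 CPM in Sham and 116, 108 and 107 CPM in BAIBA. Neither overlapped, with log2 fold changes of -0.56 and -0.24 and adjusted p of 0.386 and 0.656 (edgeR). Slc2a1 was also below every Sham rat in HF (14.8, 13.5 and 15.9 CPM) and HFE (13.7, 17.3 and 17 CPM). The other 23 of the 25 genes tested did not pass an unadjusted p of 0.05, and the median was -0.088. Pfkfb1, of glycolytic control, was higher when BAIBA rat 1 was left out. Gapdh was at 2012, 2263 and 1907 CPM in Sham and 1657, 2053 and 2355 CPM in BAIBA.

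The respiratory chain lay in the narrowest range around Sham of all the groups. Of its 31 genes, 0 were higher or lower by edgeR at an unadjusted p under 0.05, DESeq2 called 0, and the log2 fold changes lay between -0.29 and 0.07 with a median of -0.068. In the group of mitochondrial dynamics and the citric acid cycle, 0 of 19 passed the same threshold and DESeq2 also called 0. Opa1, for fusion of the inner membrane, was at 152, 109 and 141 CPM in Sham and 99.3, 105 and 148 CPM in BAIBA, and Dnm1l, for fission, was at 78.1, 71.1 and 82.5 CPM in Sham and 51.9, 59.5 and 82.6 CPM in BAIBA. Both overlapped, with intervals of -0.61 to 0.24 and -0.64 to 0.13 on the log2 scale. Sucla2, of the citric acid cycle, was at 0.034 (-0.20 to 0.27) and Ppargc1a, the coactivator of mitochondrial genes, at -0.20 (-0.83 to 0.43).

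The subunits of AMPK, the kinase that senses a low energy charge, had 1 gene at an unadjusted p under 0.05 among 13 tested with its upstream kinases. This was Prkab2, at 47.6, 47.0 and 42.3 CPM in Sham and 36.5, 33.2 and 42.7 CPM in BAIBA, which overlapped (log2 fold change -0.28, adjusted p = 0.657, edgeR) and did not pass without BAIBA rat 1. The catalytic subunit Prkaa1 was steady over the 6 rats (32.2, 28.4 and 31.8 CPM in Sham and 28.7, 31.7 and 29.6 CPM in BAIBA). Prkaa2, the catalytic subunit most used in muscle, was not, at 57.1, 9.72 and 43.5 CPM and 10.7, 30.4 and 39.3 CPM, and its interval ran from -2.42 to 1.5004. The data concern transcripts and not the phosphorylation of the kinase. For the enzymes that make or break down BAIBA, 0 of 10 tested passed an unadjusted p of 0.05 by edgeR, DESeq2 called 0, and the median was -0.18. Aldh6a1, which degrades the semialdehyde of BAIBA, was at 675, 718 and 553 CPM in Sham and 527, 603 and 678 CPM in BAIBA and overlapped.

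Apoptosis genes were found on both sides of Sham. Of 19 tested, 3 were higher and 1 was lower at an unadjusted p under 0.05 (4.13% and 3.28% of all genes), with a median of 0.036. Pmaip1, the pro-apoptotic protein NOXA, was at 6.46, 5.77 and 7.81 CPM in Sham and 8.53, 12.1 and 11 CPM in BAIBA. Bcl2l1, the anti-apoptotic BCL-X, was at 31.3, 26.9 and 37.7 CPM in Sham and 37.6, 55.5 and 52.6 CPM in BAIBA, and the inhibitor of apoptosis Birc2 at 29.5, 29.2 and 36.8 CPM in Sham and 37.0, 36 and 45.8 CPM in BAIBA. Pmaip1 was separate between the groups, and the others overlapped through a single Sham rat just above the lowest BAIBA rat. Bcl2, anti-apoptotic as well, was the lower gene, at 6.29, 6.42 and 5.19 CPM in Sham and 3.23, 4.49 and 4.28 CPM in BAIBA, without overlap. The log2 fold changes of Pmaip1, Bcl2l1, Birc2 and Bcl2 were 0.66, 0.61, 0.32 and -0.57, and none passed the adjusted test. Bax, which permeabilizes the outer mitochondrial membrane, was at 0.036 on the log2 scale (95% interval -0.40 to 0.47). Without BAIBA rat 1, 3 were higher (Bcl2l1, Pmaip1 and Birc2) and 1 was lower (Birc3 in place of Bcl2).

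Few stress and redox genes passed the unadjusted threshold. Of 19 heat shock and endoplasmic reticulum stress genes, 2 were higher (Ddit3 and Dnajb4, log2 fold changes 0.28 and 0.23) and 1 was lower (Hsph1, -0.32) at an unadjusted p under 0.05. Of 21 antioxidant and glutathione genes, 2 were higher (Gstt3 and Gpx3, 0.85 and 0.44) and 1 was lower (Txnrd1, -0.26). Gstt3, a glutathione transferase, was at 4.79, 5.25 and 3.28 CPM in Sham and 8.48, 7.18 and 8.20 CPM in BAIBA, without overlap, and 6.08, 2.64 and 2.01 CPM in HF. Adjusted p-values of all 6 genes were at or above 0.435 (edgeR). Both groups had 1 higher and 2 lower genes without BAIBA rat 1.

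The counts of scar genes changed when BAIBA rat 1 was left out. Of 33 scar and matrix genes tested, 2 were higher (Col5a2 and Dcn) and 0 were lower at an unadjusted p under 0.05, near the 4.13% and 3.28% of all genes tested, with a median of 0.21, whereas in the fit without BAIBA rat 1 there was 1 higher gene (Dcn), 4 were lower (Loxl1, Tnc, Thbs1 and Col5a1) and the median was -0.25. Col1a1, the main scar collagen, was at 164, 176 and 141 CPM in Sham and 235, 83.6 and 142 CPM in BAIBA. Postn, periostin of activated fibroblasts, was at 18.1, 12.8 and 10.9 CPM in Sham and 40.3, 2.50 and 10.5 CPM in BAIBA. In both, BAIBA rat 1 was the highest of the 6 rats and BAIBA rat 2 the lowest. Decorin, encoded by Dcn, was at 558, 520.5 and 561 CPM in Sham and 611, 705 and 602 CPM in BAIBA, with no overlap (log2 fold change 0.23, adjusted p = 0.668, edgeR). The summed fibroblast markers were at 1643, 1621 and 1523 CPM in Sham and 2112, 1478 and 1587 CPM in BAIBA, highest in the same rat.

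Inflammatory and interferon genes gave no gene past the adjusted test. Of 16 inflammatory mediators tested, 1 was higher (Nfkbia, above) and 0 were lower at an unadjusted p under 0.05, and without BAIBA rat 1 the chemokines Ccl2 and Ccl7 were lower. The 19 interferon response genes all had a log2 fold change below 0, between -1.8998 and -0.046 with a median of -0.51, but 0 passed an unadjusted p of 0.05 by edgeR and DESeq2 called 0. Irf7, a master factor of that response, was at 114, 115 and 50.6 CPM in Sham and 97.7, 63.4 and 27.9 CPM in BAIBA, and Irf1 was at 45.8, 46.4 and 23.5 CPM in Sham and 31.5, 23.0 and 20.9 CPM in BAIBA. Sham rats 1 and 2 were high and Sham rat 3 lay within the BAIBA range in both. Ifit1, an interferon-induced RNA-binding protein, was at 32.3, 34.1 and 15.3 CPM in Sham and 0.390, 21.5 and 0.241 CPM in BAIBA, where only rat 2 held a level of the Sham kind. When BAIBA rat 1 was left out, 3 interferon genes were lower (Psmb9, Isg15 and Irf1) and the median was -0.81.

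Of 18 angiogenesis genes tested, 3 were lower (Aplnr, Hif1a and Apln) and 1 was higher (Flt4) at an unadjusted p under 0.05 and none passed the adjusted test, with a median of 0.0062. Apln, the ligand apelin, was at 19.2, 21.1 and 20.03 CPM in Sham and 17.6, 13 and 16.5 CPM in BAIBA, and Aplnr, its receptor, was at 84.2, 89.9 and 81.8 CPM in Sham and 58.3, 67.3 and 62.0 CPM in BAIBA. Neither overlapped (log2 fold changes -0.35 and -0.44, adjusted p of 0.654 and 0.294, edgeR). Hif1a, the oxygen-sensing transcription factor, was at -0.29 (-0.54 to -0.045). Flt4, the receptor for lymphatic growth factors, was at 17, 18.7 and 21.1 CPM in Sham and 25.8, 24.5 and 27.6 CPM in BAIBA, without overlap. With BAIBA rat 1 left out, 5 were higher (Flt1, Flt4, Epas1, Tek and Hif3a) and 2 were lower (Aplnr and Apln).

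Clock genes were found on both sides of Sham in equal number. Of 18 tested, 3 were higher (Per1, Per2 and Cry1) and 3 were lower (Nr1d1, Ciart and Bhlhe41) at an unadjusted p under 0.05 (4.13% and 3.28% of all genes). Per2, a repressor of the clock, was at 62.5, 71.4 and 79.8 CPM in Sham and 84.8, 105 and 99.1 CPM in BAIBA, and Cry1, its partner, was at 7.27, 8.56 and 10.8 CPM in Sham and 12.5, 13.2 and 13 CPM in BAIBA. Bhlhe41, a further repressor, was at 12.6, 12.3 and 10.3 CPM in Sham and 7.36, 6.86 and 7.36 CPM in BAIBA. All 3 were separate between the groups, with log2 fold changes of 0.44, 0.55 and -0.70 and adjusted p of 0.531, 0.565 and 0.283 (edgeR). The time of day at which each heart was taken is not given in the sources used here, and its part in these values was not tested.

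Markers of other cell types were counted in the same way. Of 5 erythroid markers tested, 4 were higher in BAIBA at an unadjusted p under 0.05 (Hbb, Alas2, Hba-a1 and Hba-a2), with and without BAIBA rat 1, and their summed level was 539.7, 780.0 and 602 CPM in Sham and 905, 1304 and 1199 CPM in BAIBA. Hbb, beta-globin, was at 130.04, 195 and 229 CPM in Sham and 352, 306 and 486 CPM in BAIBA. All BAIBA rats were above all Sham rats in the sum and in Hbb. Blood left in the tissue was not tested as a source. Of 7 lymphatic markers, 5 were higher (Ccl21, Flt4, Lyve1, Mmrn1 and Pdpn) and 1 was lower (Prox1), against 4.13% and 3.28% of all genes tested, with the same counts without BAIBA rat 1. Lyve1, a hyaluronan receptor of lymphatic vessels and some macrophages, was at 23.0, 22.2 and 22.4 CPM in Sham and 76.4, 32.8 and 37.7 CPM in BAIBA, whereas Prox1, the factor that defines lymphatic endothelium and is also made in cardiomyocytes, was at 64.1, 55.1 and 48.1 CPM in Sham and 34.4, 35.8 and 41.0 CPM in BAIBA.

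Of 5 mesothelial and epicardial markers tested, 3 were higher at an unadjusted p under 0.05 with BAIBA rat 1 and 0 without it, although the median log2 fold change was 3.56 with it and still 2.06 without it. Their summed level was 27.4, 25.5 and 27.3 CPM in Sham and 102, 31.4 and 50.5 CPM in BAIBA, without overlap, and Msln, mesothelin, was at 0.750, 0.843 and 2.50 CPM in Sham and 36.1, 1.03 and 10.3 CPM in BAIBA. Of 8 macrophage markers, 1 was higher with that rat (Cd163), and 1 was lower without it (Lyz2). Lyz2, lysozyme, was at 83.9, 119 and 70.1 CPM in Sham and 758, 57.5 and 61.5 CPM in BAIBA. The summed neutrophil and mast cell markers were at 32.5, 35.6 and 29.1 CPM in Sham and 47.3, 28.6 and 28.7 CPM in BAIBA, and the adipocyte markers at 57.4, 54.3 and 44.2 CPM in Sham and 81.0, 65.6 and 109.6 CPM in BAIBA. Adipocyte sums were separate between the groups, with Cidea higher at an unadjusted p under 0.05, and neutrophil and mast cell sums were not, with Cpa3 higher and Kit lower. Of the T and B lymphocyte markers 1 was higher (Cd3e). For cardiomyocytes, fibroblasts, endothelium, smooth muscle, skeletal muscle and nerve, no more than 1 marker passed an unadjusted p of 0.05 in either direction. The endothelial marker Cldn5 and the mesothelial marker Calb2 were at 0 in all 6 rats. The part of the cell makeup in the gene groups above was not tested.

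**Figure D4:**
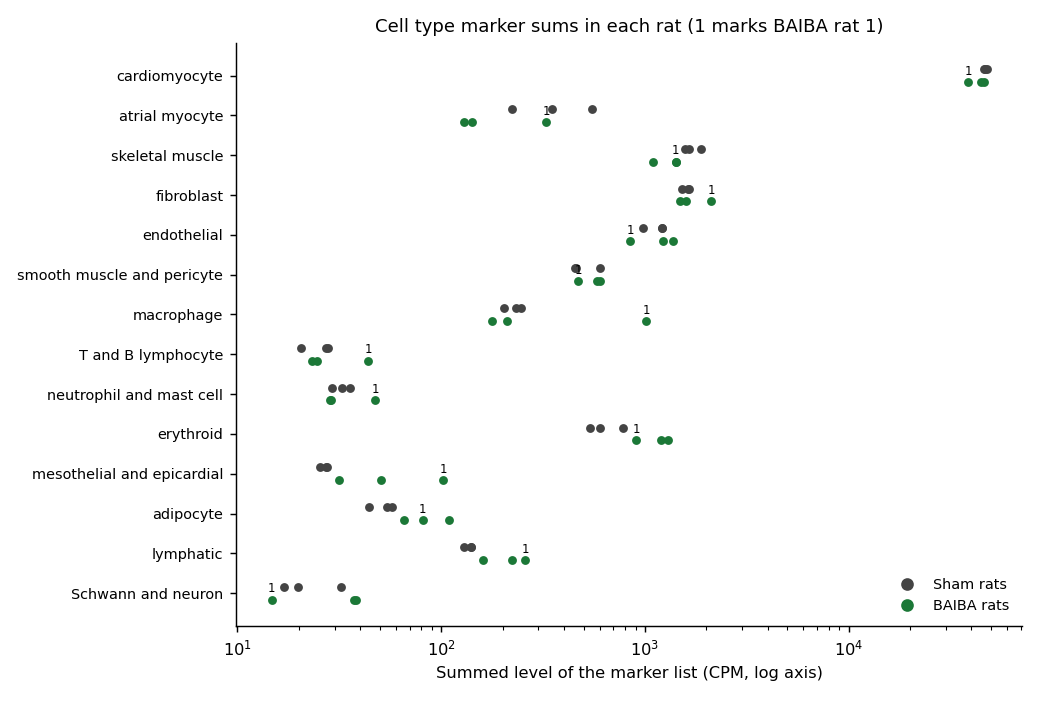
Summed level in CPM (log axis) of the markers of each cell type in each of the 3 Sham and 3 BAIBA rats, with 1 point a rat. BAIBA rat 1 is far above the other 5 rats for macrophage markers, and all BAIBA rats are above all Sham rats for erythroid markers.

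Values of the other ligated groups were set beside these, against the same Sham rats, so the comparisons share their controls. The site from which HF tissue was cut is uncertain, as given above. Myh7 was at 11782, 8573 and 17479 CPM in HF and 13923, 16587 and 12841 CPM in HFE, above every Sham rat in both, while it was below every Sham rat in BAIBA. The log2 fold change of Myh7 against Sham was 0.71 (0.14 to 1.27) in HF and 0.91 (0.68 to 1.14) in HFE, against -1.17 in BAIBA. Set directly against HF, BAIBA had a log2 fold change of -1.89 (-2.48 to -1.29, adjusted p = 0.334, edgeR), with no overlap of the rats. Myh6 was at -0.62 (-0.89 to -0.35) in HF and -0.73 (-1.04 to -0.43) in HFE, against -0.20 in BAIBA. Nppb, at -0.33 in BAIBA, was at 1.26 (0.26 to 2.27) in HF and 1.35 (0.15 to 2.56) in HFE. For Npr3 all 3 values were below 0 (-1.68 in BAIBA, -0.79 in HF and -1.86 in HFE). F3 was at 0.098 (-0.45 to 0.64) in HF and 0.24 (-1.2001 to 1.67) in HFE, with both intervals spanning 0. Sik1 was at 0.52 (-0.57 to 1.61) in HF and 2.27 (-0.73 to 5.28) in HFE, with HFE rat 3 far above the other rats. Over all genes tested, 4.13% were higher and 3.28% lower at an unadjusted p under 0.05 in BAIBA against Sham, 2.47% and 3.53% in HF against Sham, and 6.04% and 5.15% in HFE against Sham. In BAIBA against HF, 2.81% were higher and 2.73% lower.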

How the data were processed

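RNA from the left ventricle was purified on oligo(dT) beads and sequenced as paired-end libraries. The authors aligned reads by HISAT2, used StringTie to add genes missing from the annotation and counted reads per gene with featureCounts, and deposited raw whole-number counts. The deposited FPKM values were derived by the authors from those counts and the gene lengths. The submitters' processing notes name the build mm9, which is a mouse build, while the gene identifiers in the table are rat, so no coordinates were taken from the files. Tool versions and the use of strand in counting are not given in the sources used here, so overlapping and antisense genes cannot be told apart. The table held 34700 genes, 2077 of them without a symbol.

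The 6 rats compared were fitted with edgeR 4.0.16 (R 4.3.3) on the deposited counts, with TMM normalization, filterByExpr, robust quasi-likelihood fits and no covariate. Genes were called at a Benjamini-Hochberg adjusted p under 0.05 over all genes tested when the log2 fold change was also over 1 in size. An adjusted p with no tool beside it comes from this test. CPM values used TMM factors over the 12 rats. Nothing in the labels says more than that the samples of a group are separate, so p-values measure the spread between these samples. An exact permutation test (two-sided, log2 of CPM + 0.1, 20 assignments) cannot go below p = 0.1 with 3 rats a group. At these depths the median standard error of a log2 fold change was 0.171 over genes with a symbol, or 0.128 for those with a mean of at least 10 CPM. Intervals are 95% intervals from the same fit.

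Genes were named if they were called, if they were among the 15 with the smallest p in each direction with an unadjusted p under 0.01, a log2 change over 0.58 in size, a mean of at least 1 CPM and no overlap between the rats, if DESeq2 called them under the same conditions of overlap and level (up to 10 in each direction, by fold), or if they belonged to the lists of pathway, study or marker genes, where members with an unadjusted p under 0.05 or the highest levels were named. Some of these genes are counted but not reported by name here. The members and lists were chosen with earlier results of these data known. Alternatives were DESeq2 1.42.0, RLE and library-size scaling, other filters, a fit of every rat of the series, the replicate number as a blocking factor, leaving out each rat, no fold limit, an unadjusted p, the genes with a symbol alone and limma 3.58.1 on log2(FPKM + 1) and log2(FPKM + 0.1). The counts over lists without BAIBA rat 1 were added after its marker levels were seen. The scripts were tested on simulated data. Sequences and positions came from RefSeq for GRCr8.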

Additional observations from a re-analysis of the deposited data

Results flagged for a closer look

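Myh7 differed in opposite directions from Sham. All 3 HF rats were above all 3 Sham rats and all 3 BAIBA rats were below them. Set directly against HF, the log2 fold change of BAIBA was -1.887 (adjusted p = 0.334, edgeR), so the difference between the groups did not pass the adjusted test. Of the genes tested (14920 in BAIBA against Sham), 30 had all HF rats on one side of Sham and all BAIBA rats on the other, Myh7 among them. Of these 30, 26 had a symbol, and 20 of those had a mean of at least 10 CPM. In BAIBA against Sham alone, 973 genes were without overlap and higher and 921 without overlap and lower. How many of the 30 would arise from the order of the rats alone was not tested, so the count is only a description.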

How the results depend on the processing

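The number of called genes depended on the tool and the filter. Against 1 higher and 2 lower genes with a symbol, DESeq2 gave 32 and 24, edgeR with no filter beyond 1 count gave 9 and 10, with at least 10 counts in every library 0 and 1, and with all 12 rats in 1 fit 0 and 0. With an unadjusted p and the fold limit kept, edgeR gave 129 and 84. Genes with a symbol alone gave 0 higher genes, as did limma on log2(FPKM + 1), on log2(FPKM + 0.1) and without a filter, the last with 1 lower gene. The cause of these shifts was not tested. RLE normalization, library-size scaling and no fold limit kept both counts within 1.5 times. Leaving out each rat in turn gave 0 to 8 higher and 2 to 5 lower genes, with 0 higher without Sham rat 1, Sham rat 2 or BAIBA rat 3, 4 without BAIBA rat 1 and 8 higher and 5 lower without BAIBA rat 2. Same-numbered rats did not deviate together (correlations of -0.083, -0.083 and 0.105), and the fit with the replicate number as a block gave 0 higher and 5 lower genes.

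F3 lost its call in every alternative that gave 0 higher genes. It also lost the call without Sham rat 3 (adjusted p = 0.0632, edgeR) and without BAIBA rat 2 (adjusted p = 0.0803, edgeR), where other genes were called higher. Myh7 lost its call without each Sham rat, in the fit of all 12 rats (adjusted p = 0.302, edgeR) and with limma without a filter (adjusted p = 0.0555). RGD1563601 lost it with all 12 rats (adjusted p = 0.584, edgeR) and was filtered out with at least 10 counts in every library. For single named genes, 857 of 945 values kept their direction and side of the threshold, 18 fell short of it, 52 passed it and 18 changed sign. The changes of sign came from leaving out 1 rat and touched 10 genes, whose log2 fold changes ranged from -0.140 to 0.187 for Bax, -0.398 to 0.013 for Ppargc1a, -0.057 to 0.071 for Sucla2, -0.120 to 0.036 for Cpt1b, -0.253 to 0.098 for Acaca, -0.028 to 0.160 for Acacb, -0.091 to 0.00041 for Prkaa1, -0.910 to 0.015 for Prkaa2, -0.154 to 0.1002 for Gapdh and -0.078 to 0.167 for Actb. The median standard error of a log2 fold change was 0.171 over genes with a symbol and 0.128 over those of them with a mean of at least 10 CPM.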

Other observations

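Among 1266 tested genes without a symbol, which the authors assembled outside the annotation, 1 was called higher and 2 lower (adjusted p under 0.05, edgeR). The higher one was at 3.06, 3.24 and 2.50 CPM in Sham and 16.3, 25.1 and 24.5 CPM in BAIBA. The lower one with the smaller p was at 8.54, 10.4 and 10.9 CPM in Sham and 0.0558, 0 and 0.121 CPM in BAIBA. Both were separate between the groups.

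Fam111a, a protease of DNA replication, was named after its values were seen. It was at 1.73, 2.53 and 3.09 CPM in the Sham rats and 241, 1.796 and 239.5 CPM in the BAIBA rats, so it was high in 2 BAIBA rats and at the Sham level in the other. HF rats were at 249, 1.53 and 2.70 CPM and HFE rats at 493, 2.84 and 1.71 CPM.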
